A study of Mus musculus with 32 samples.

Results

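Bladder maturation was read from 11 of the 32 RNA sequencing libraries, the 5 bladders of middle-aged mice (10 months) set against the 6 bladders of young mice (2 months). Every mouse in both groups was female, of the C57BL/6 strain and untreated, and the labels name no allele or agent. Each library came from total RNA of a whole bladder, so that the urothelium, the lamina propria, the detrusor muscle, vessels, nerves and resident immune cells were read together, and a change could not be assigned to a cell type. In such material fewer cells of a type and less RNA per cell cannot be told apart. The 6 untreated bladders of 26-month-old mice are used below only to show whether a change up to 10 months went on, stopped or turned back.

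The bladder wall of a young mouse is still growing and laying down connective tissue. Fibroblasts secrete procollagens and tropoelastin, which are trimmed, hydroxylated and cross-linked outside the cell into long-lived fibers, so that an adult organ can keep its matrix with little new synthesis. Sensory and autonomic fibers, with their Schwann cells, run through the wall, and scattered urothelial cells with secretory granules have been described in the urethra and bladder neck. Macrophages and mast cells settle in the wall early in life, whereas B cells and antibody-secreting plasma cells accumulate in many mucosal tissues with age.

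Library depth was 15088372 to 33614273 gene-assigned counts in the young group and 30509493 to 36564055 in the middle-aged group, and 2 young libraries, bladders 3 and 4, lay under 20000000. The first principal component of the 11 libraries held 31.2% of the variance, and along it young bladders 1, 2 and 6 lay far from the middle-aged bladders while young bladders 4 and 5 lay near them; bladders 3 and 4 stood apart on the second component (21.3%). After scaling by library composition, smooth muscle markers made up 3.13 to 4.80% of counts in young and 3.24 to 4.39% in middle-aged bladders. Urothelial markers made up 0.715 to 0.860% and 0.790 to 0.895%, so that the labelled tissue carried its defining genes in both groups. Bladder 2 of the young group had the highest summed level of macrophage markers, and bladder 3 the highest summed level of immediate early genes. All levels below are CPM, gene counts relative to library size after scaling by library composition, unless a sentence gives TPM, which also divides by gene length. The labels number the bladders and name no litter, date or batch.

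Of 16754 genes with enough counts to test, 831 were higher and 980 lower in middle-aged bladders at an adjusted p under 0.05 (edgeR quasi-likelihood test, Benjamini-Hochberg adjustment). That is 10.8% of the genes tested, 4.96% higher and 5.85% lower, and these shares are the background against which the gene lists are read. The median log2 fold change was 0.38 among the higher genes and -0.48 among the lower ones, and 91 rose while 184 fell by more than 2-fold. In 7.07% of tested genes the young and middle-aged CPM did not overlap, and 980 genes (5.85%) were both called and not overlapping. The number of calls depended on single libraries. It was 1172, 1176, 2794 and 942 without young bladder 1, 2, 4 or 6, and 888, 882, 972 and 728 without middle-aged bladder 1, 2, 3 or 5. Without both shallow young libraries, an alternative chosen after the data were seen, it was 3717.

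**Figure D1:**
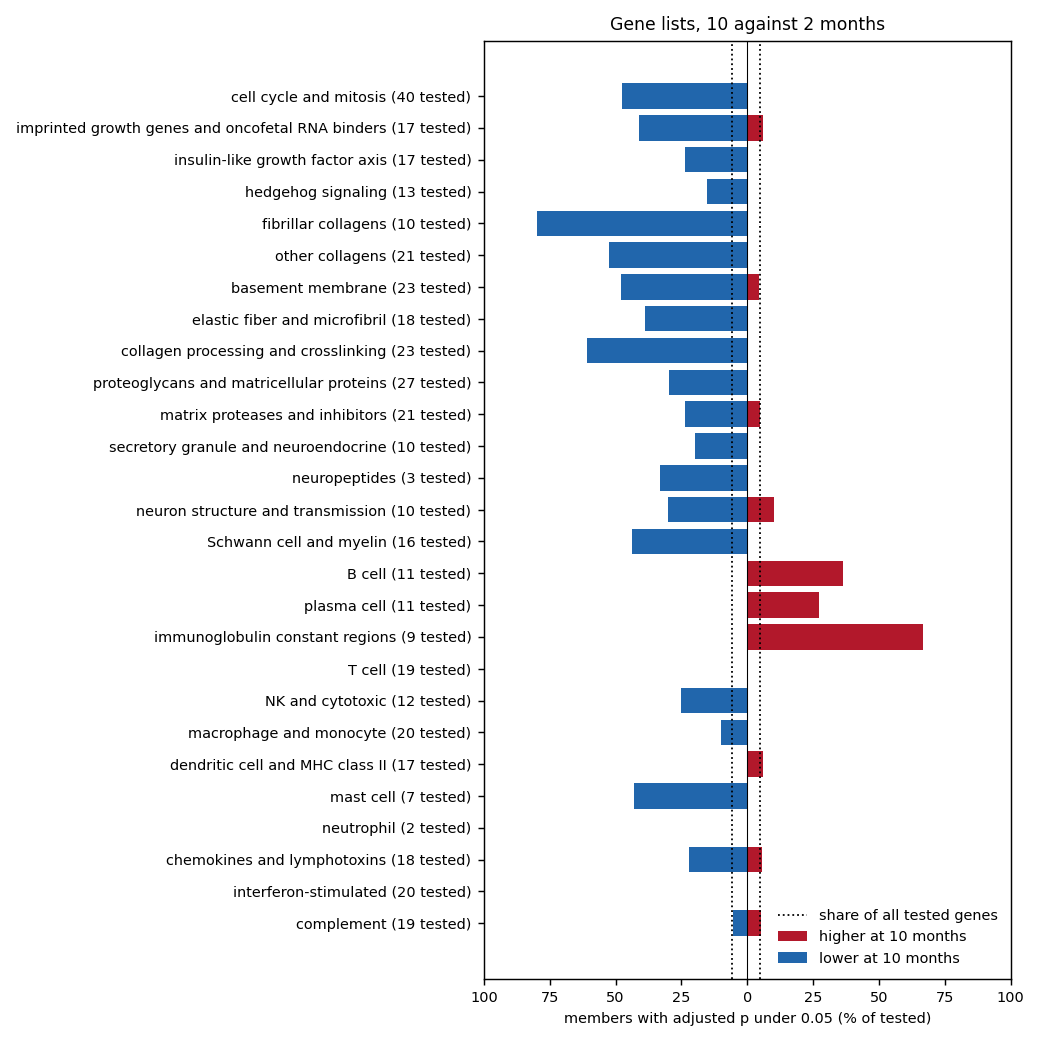
Share of the tested members of each gene list with an adjusted p under 0.05 in middle-aged against young bladders, in percent, with lower genes drawn to the left and higher genes to the right of 0. The dotted lines mark the shares of all tested genes (4.96% higher, 5.85% lower); of the lists drawn, fibrillar collagens (8 of 10 lower) and collagen processing (14 of 23 lower) reach furthest to the left and the immunoglobulin constant regions furthest to the right.

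In the plot of the gene lists 32 growth genes, 64 matrix genes and 13 nerve or neuroendocrine genes were lower at 10 months, against 1, 2 and 1 that were higher. The lists were chosen with earlier results of these data known, so that their shares beside the background are a description and not a test. Among the immune lists 16 genes were higher and 13 lower, and all but 3 of the higher genes belonged to the B cell, plasma cell and immunoglobulin lists. The median log2 fold change of the tested members was -0.50 for growth, -0.44 for matrix, -0.41 for nerve and neuroendocrine genes and -0.11 for immune genes, beside 0.00 for all genes tested.

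Genes of the cell cycle were lower in middle-aged bladders. Of 40 listed genes of DNA replication and mitosis all were tested, 19 fell, none rose, and 39 had a negative log2 fold change, with a median of -1.06. Summed, the 40 genes made up 237 to 565 CPM in young bladders (median 302) and 224 to 243 CPM in middle-aged bladders. The spread lay in the young group: bladder 1 reached 565, bladder 2 reached 393 and bladder 6 reached 346 CPM, while young bladders 3, 4 and 5 lay at 259, 237 and 245 CPM, of which bladder 4 was inside the middle-aged range. In 5 of the 40 genes the groups did not overlap, beside 7.07% of all tested genes.

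Cdk1, the kinase that drives entry into mitosis, read 2.41 CPM in the lowest, 3.05 in the median and 7.58 in the highest young bladder, and 1.31, 2.26, 1.49, 1.53 and 1.27 CPM in middle-aged bladders 1 to 5. The groups did not overlap, and the level was 2.66-fold lower at 10 months (log2 fold change -1.41 ± 0.31 SE, adjusted p = 0.0145 by edgeR). Birc5, which encodes survivin of the chromosomal passenger complex, fell 2.67-fold (-1.42 ± 0.32, adjusted p = 0.0155). Ccnb1, the cyclin partner of Cdk1, ran from 0.587 to 4.64 CPM in young bladders and from 0.221 to 0.763 in middle-aged ones, a 5.01-fold lower fitted level with overlap between the groups. The mitotic checkpoint kinase Ttk fell 3.41-fold without overlap. Both of the last calls were lost without middle-aged bladder 5 (adjusted p = 0.0548 for Ccnb1 and 0.0551 for Ttk).

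Mki67, a marker of cycling cells, read 5.58, 11.7 and 30.8 CPM in the lowest, median and highest young bladders and from 2.91 to 6.65 CPM in the middle-aged ones. The highest young values were those of bladders 1, 2 and 6, the same 3 that led the summed list, and the lowest young values lay inside the middle-aged range. The fall in Mki67 (3.23-fold, adjusted p = 0.0252) was lost when young bladder 2 or middle-aged bladder 1, 3 or 5 was left out, with adjusted p of 0.0505, 0.0537, 0.0665 and 0.0725. Top2a, also called lower, lost its call in 8 of the 11 fits that left out a bladder, any middle-aged bladder among them, and by limma. Pcna, the replication clamp, which is also present in non-dividing cells, read 37.6 to 59.8 CPM and 38.5 to 43.4 CPM and did not pass (adjusted p = 0.365). The count of 19 for the list was 9, 5 and 7 without young bladder 1, 2 or 6, was 5, 8, 5, 6 and 2 without middle-aged bladder 1, 2, 3, 4 or 5, and was 35 without both shallow young libraries. Outside the list, the rule for large changes named Uhrf1 (maintenance of DNA methylation at replication), E2f7 (a cell cycle repressor), Clspn (replication checkpoint) and Diaph3 (a formin of the contractile ring and cell cortex), which fell 3.73-, 3.62-, 3.56- and 3.18-fold with no overlap between groups. The rule itself asked for groups that do not overlap, so that the absence of overlap is no result for the genes it names.

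The 250 bases before the transcription start of 3 of these genes are shown because many genes of the G2 and M phases share a pair of short promoter elements. The first is the CHR, searched as the letters TTTGAA. The second is the CCAAT box, searched by the letters of its name. Each was searched on both strands, a match of one could share bases with a match of the other and was then counted for both, and all matches are in capitals. The sequences are from RefSeq on GRCm38.p6, 5′ to 3′ on the strand of the gene. The windows are chr11:99024190-99024439 on the minus strand for Top2a, chr7:135716380-135716629 on the minus strand for Mki67 and chr9:83834439-83834688 on the plus strand for Ttk, and each ends at the base before the start.
Top2a: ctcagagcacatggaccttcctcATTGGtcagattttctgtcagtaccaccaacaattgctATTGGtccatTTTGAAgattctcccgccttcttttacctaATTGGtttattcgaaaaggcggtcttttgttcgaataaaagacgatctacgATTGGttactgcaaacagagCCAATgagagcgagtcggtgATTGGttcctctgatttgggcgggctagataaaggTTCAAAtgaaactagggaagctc
Mki67: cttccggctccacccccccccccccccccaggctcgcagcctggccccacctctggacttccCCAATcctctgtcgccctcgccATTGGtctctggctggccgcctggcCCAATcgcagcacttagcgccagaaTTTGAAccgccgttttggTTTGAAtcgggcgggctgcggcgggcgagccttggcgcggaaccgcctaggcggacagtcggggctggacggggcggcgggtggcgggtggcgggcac
Ttk: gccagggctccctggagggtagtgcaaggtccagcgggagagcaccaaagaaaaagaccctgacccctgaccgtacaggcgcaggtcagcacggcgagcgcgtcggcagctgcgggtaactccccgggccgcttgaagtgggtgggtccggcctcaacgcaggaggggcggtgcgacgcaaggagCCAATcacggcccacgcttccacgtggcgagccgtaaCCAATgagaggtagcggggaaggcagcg
Over 1 window per gene for 27025 genes, 34.5% held the CCAAT box and 16.3% the CHR. Of the 33 cell cycle genes with a window, 26 (78.8%) held the CCAAT box and 9 (27.3%) the CHR. The box was present in 14 of the 16 members with a window that fell and in 12 of the 17 that were not called, so that these letters were common in the list whether or not a gene passed the test. The CHR was present in 5 of the 16 and in 4 of the 17. Top2a held 6 and Mki67 held 3 copies of the CCAAT box and 2 of the CHR each, whereas Ttk held 2 CCAAT boxes and no CHR in this window. Among genes whose window is not shown, Cdk1 held 3 CCAAT boxes and 2 of the CHR. Ccnb1 held 2 CCAAT boxes and no CHR, and Birc5 held neither element. A match is a description of letters and not of a bound site.

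**Figure D2:**
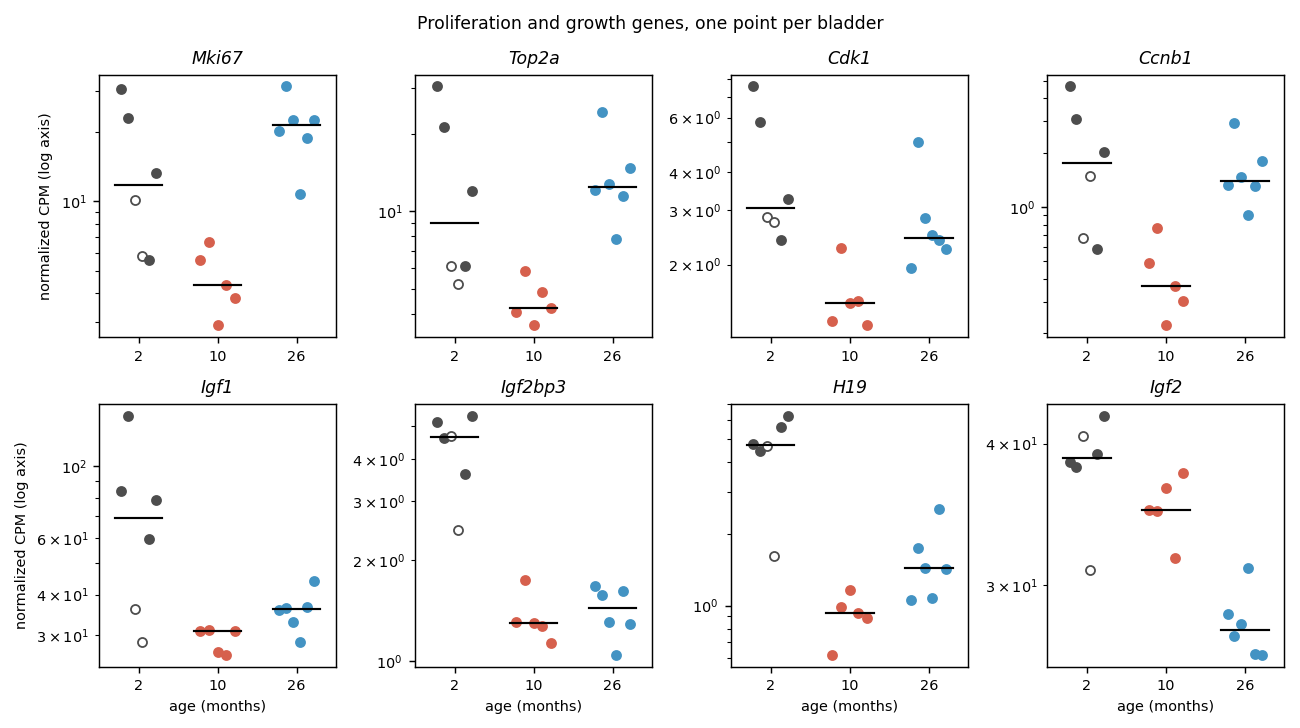
Normalized CPM (log axis) of 8 proliferation and growth genes in each young, middle-aged and untreated old bladder (2, 10 and 26 months on the horizontal axis); the bars are group medians and the open points are the 2 shallow young libraries. Mki67, Top2a, Cdk1 and Ccnb1 dip at 10 months, Igf2bp3 and H19 fall without overlap, and Igf2 stays between 31.0 and 42.3 CPM in the 11 younger bladders.

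Genes of fetal and postnatal growth were lower as well. Of 19 listed imprinted growth genes and oncofetal RNA binders 17 were tested, 7 fell and 1 rose, with a median log2 fold change of -0.40. The RNA-binding protein gene Igf2bp3, which is expressed mainly before birth, read 2.45, 4.64 and 5.37 CPM in the lowest, median and highest young bladders and 1.31, 1.75, 1.30, 1.27 and 1.13 CPM in the middle-aged ones. All middle-aged bladders lay below all young ones (3.22-fold, -1.69 ± 0.20, adjusted p = 0.000755). Its paralog Igf2bp1 fell 3.09-fold (adjusted p = 0.00473), with 1 young bladder, the shallow bladder 4 at 0.657 CPM, inside the middle-aged range. H19, an imprinted non-coding RNA that is abundant in the fetus, read 1.61, 4.72 and 6.28 CPM in young and 0.622, 0.986, 1.16, 0.933 and 0.882 CPM in middle-aged bladders, a 5.02-fold fall (-2.33 ± 0.28, adjusted p = 0.000827) in which the groups did not overlap.

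Igf2, the fetal growth factor that neighbors H19 in the genome, did not pass over all 11 bladders. It read 31.0 to 42.3 CPM in young and 31.7 to 37.7 CPM in middle-aged bladders (-0.13 ± 0.07, adjusted p = 0.260). The shallow young bladder 4 was lowest of all, and without it Igf2 passed (adjusted p = 0.0354). The maternally expressed non-coding RNA Meg3 fell by 0.58 on the log2 scale, from 351 to 451 CPM to 248 to 297 CPM. The growth suppressor Ndn (necdin) fell 1.55-fold and the signaling adaptor Grb10 by 0.40 on the log2 scale, both without overlap. Lin28b, an oncofetal inhibitor of let-7 processing, was the exception: it read at most 0.303 CPM in young and 0.565 to 0.917 CPM in middle-aged bladders and rose 3.34-fold (1.74 ± 0.37, adjusted p = 0.0128), at a level of under 1 CPM throughout. That rise was lost in a fit with the replicate number of the titles as a block (adjusted p = 0.0623) and passed with the numbers of the count table (adjusted p = 0.0456).

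In the insulin-like growth factor axis 17 of 19 listed genes were tested, 4 fell and none rose. Igf1, the growth factor made by stromal cells and macrophages under growth hormone, read 28.4, 69.0 and 144 CPM in the lowest, median and highest young bladders and 30.8, 31.0, 26.5, 26.0 and 30.9 CPM in the middle-aged ones (2.51-fold lower, adjusted p = 0.0229). The highest Igf1 value was that of young bladder 2, and 1 young bladder, the shallow bladder 4, lay inside the middle-aged range. The binding protein genes Igfbp7 and Igfbp5 fell 1.28-fold and 1.66-fold, and Stc2, a stanniocalcin that restrains release of the factor from its binding proteins, fell 1.41-fold. The receptor gene Igf1r had a log2 fold change of -0.02 and did not pass. The 4 calls became 2 without middle-aged bladder 1, 2, 3 or 5, and the Igf1 call was lost in each of those fits (adjusted p 0.0520 to 0.0587). In hedgehog signaling 2 of 13 tested genes fell, a share of 15.4% beside 10.8% of all genes tested. They were the coreceptor Boc and the transcription factor Gli2, lower by 0.33 and 0.50 on the log2 scale. No tested member of the list had groups that did not overlap. Of the calls 1 was left without young bladder 6 and none without middle-aged bladder 1, 2, 3 or 5.

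For growth as a whole, the 33 calls became 18 and 20 without young bladder 2 or 6, and 14, 17, 14, 19 and 11 without middle-aged bladder 1, 2, 3, 4 or 5. They became 55 without both shallow young libraries.

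Many genes of the extracellular matrix were lower. Of 153 listed matrix genes 143 were tested, 64 fell and 2 rose, and 40 had groups that did not overlap, beside a background of 7.07% of all genes. Matrix transcripts were summed over the 153 genes after scaling by library composition. They took 4.32 to 7.12% of counts in young bladders (median 5.36%) and 3.27 to 3.99% in middle-aged bladders (median 3.43%). Every middle-aged bladder lay below every young one. The count of 66 calls stayed between 46 and 82 when any 1 bladder was left out, and was 91 without both shallow young libraries.

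Fibrillar collagens, which form the load-bearing fibers of the wall, were among them, with 8 of 10 tested members lower and a median log2 fold change of -0.97. Col3a1, the collagen of thin reticular fibers, read 3774, 5496 and 8618 CPM in the lowest, median and highest young bladders and 2277, 2364, 2348, 2817 and 2167 CPM in the middle-aged ones. The groups did not overlap (2.52-fold lower, -1.33 ± 0.22, adjusted p = 0.00348), with young bladders 1, 2 and 6 highest. In TPM, which allows genes to be compared, Col1a1 was the most abundant of the 4 named fibrillar genes, at 3075 ± 966 (SD, n = 6) in young and 1467 ± 199 (n = 5) in middle-aged bladders.

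Col1a2 and Col1a1, the chains of type I collagen, fell 1.98-fold and 2.10-fold, and Col11a1, a minor fibril-nucleating chain, 2.93-fold. These calls held in every leave-one-out fit. Among the other collagens 11 of 21 tested genes fell, led by the type VI chains Col6a1 (1076 to 1608 CPM, then 725 to 891 CPM) and Col6a2, the fibril-associated Col16a1 and the network-forming Col8a2. That count was 7 without middle-aged bladder 1, 2, 3 or 5. Of 23 tested basement membrane genes 11 fell and 1 rose. The laminin chain gene Lama4 read 277, 283 and 299 CPM in young and 226, 226, 247, 239 and 242 CPM in middle-aged bladders, a 1.22-fold fall that exceeded the spread (-0.29 ± 0.04, adjusted p = 0.00228). Lamb1, Col18a1 and Nid2 fell by 0.61, 0.36 and 0.79 on the log2 scale. The member that rose, named here after its values were seen, was Lamb3, a laminin-332 chain made by epithelium, at 49.1 to 82.6 CPM in young and 72.0 to 95.0 CPM in middle-aged bladders (adjusted p = 0.0498).

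Of 18 tested elastic fiber genes 7 fell and none rose. Eln, which encodes tropoelastin, read 117, 239 and 807 CPM in the lowest, median and highest young bladders and 78.0, 73.9, 74.1, 61.2 and 67.7 CPM in the middle-aged ones. The young values spread widely, with bladder 1 at 807, bladder 2 at 394 and bladder 6 at 351 CPM, yet none reached down to the middle-aged range (4.53-fold lower, -2.18 ± 0.47, adjusted p = 0.0132). Fbn1, the main microfibril scaffold, fell 2.56-fold. Fbn2, the fibrillin of developing tissue, read 0.239 to 2.15 CPM in young and 0.0328 to 0.226 CPM in middle-aged bladders, which are 4 to 67 counts and 1 to 8 counts per library (-3.32 ± 0.63, adjusted p = 0.00735). The microfibril-associated Mfap5 and the elastin interface protein gene Emilin2 fell by 0.80 and 0.37 on the log2 scale, both without overlap.

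Enzymes and chaperones that finish collagen fell with it. Of 23 tested genes 14 were lower and none was higher, and the count ran from 11 to 16 when 1 bladder was left out. Adamts2, the procollagen N-proteinase, read 148, 204 and 299 CPM in young and 92.1, 88.2, 87.8, 103 and 84.0 CPM in middle-aged bladders without overlap (2.37-fold, -1.25 ± 0.17, adjusted p = 0.00151). Fkbp10, a collagen chaperone of the endoplasmic reticulum, fell 1.68-fold, Bmp1, the C-proteinase, 1.51-fold, and the cross-linking oxidase gene Loxl2 2.35-fold. Lox itself read 43.9 to 162 CPM and 24.4 to 46.4 CPM, with 1 young bladder (the shallow bladder 4) and 1 middle-aged bladder in the shared range.

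Of 27 tested proteoglycan and matricellular genes 8 fell and none rose. Sparc, a collagen-binding glycoprotein of remodeling tissue, read 1711, 2452 and 4060 CPM in young and 1053, 1032, 1055, 1341 and 951 CPM in middle-aged bladders (2.52-fold, adjusted p = 0.00414). Periostin (Postn) fell 1.62-fold with small spread (479 to 650.4 CPM, then 338 to 375 CPM, adjusted p = 0.000688). Hapln1, a link protein of hyaluronan, and Thbs3, a thrombospondin, fell by 1.02 and 0.43 on the log2 scale. The list's count was less firm than those of the collagens: it was 3, 5 and 3 without young bladder 1, 2 or 6, 13 and 12 without young bladder 4 or 5, and 4, 2, 3 and 2 without middle-aged bladder 1, 2, 3 or 5. Ccn1, a matricellular gene that also answers to handling and stretch, passed at an adjusted p of 0.0422, but the call was lost in 8 of the 11 fits that left out a bladder, any middle-aged bladder among them. Young bladder 3 alone read 336 CPM against 15.8 to 74.8 CPM in the other young bladders.

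Genes of matrix breakdown changed as well. Of 21 tested proteases and inhibitors 5 fell and 1 rose, a share of 28.6% beside 10.8% of all genes tested. Timp1, an inhibitor of metalloproteinases, read 4.75 to 9.21 CPM in young and 3.31 to 4.24 CPM in middle-aged bladders (1.98-fold lower, adjusted p = 0.00321), and the gelatinase gene Mmp2 fell 1.31-fold. Both kept groups that did not overlap. Mmp11, stromelysin-3, was the 1 member that rose: it read 13.4, 17.8 and 20.3 CPM in young and 21.7, 22.3, 21.2, 21.4 and 22.1 CPM in middle-aged bladders (1.26-fold, adjusted p = 0.0307). That call was lost without young bladder 6 or middle-aged bladder 1, 2, 3 or 5 (adjusted p 0.0521 to 0.0762). The count of 6 for the list was 4 and 3 without young bladder 1 or 6, 10 without young bladder 5, and 4, 3, 3 and 3 without middle-aged bladder 1, 2, 3 or 5.

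Fibroblast markers were lower as well. Of 10 tested markers 6 fell (Cd34, Col15a1, Dpt, Twist2, Pdgfrb and Pi16), and the summed level of the 10 was 6212 to 6996 CPM in young and 5755 to 6158 CPM in middle-aged bladders, without overlap. Young bladders 1, 2 and 6 had the most matrix RNA. Their fibroblast markers summed to 6212, 6315 and 6955 CPM, the first 2 lowest and the last near the top of the young range. The count of 6 was 3, 3 and 2 without young bladder 1, 2 or 6, and 3, 4, 2, 3 and 2 without middle-aged bladders 1 to 5 in turn. The part of fibroblast number in the matrix result was not tested.

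**Figure D3:**
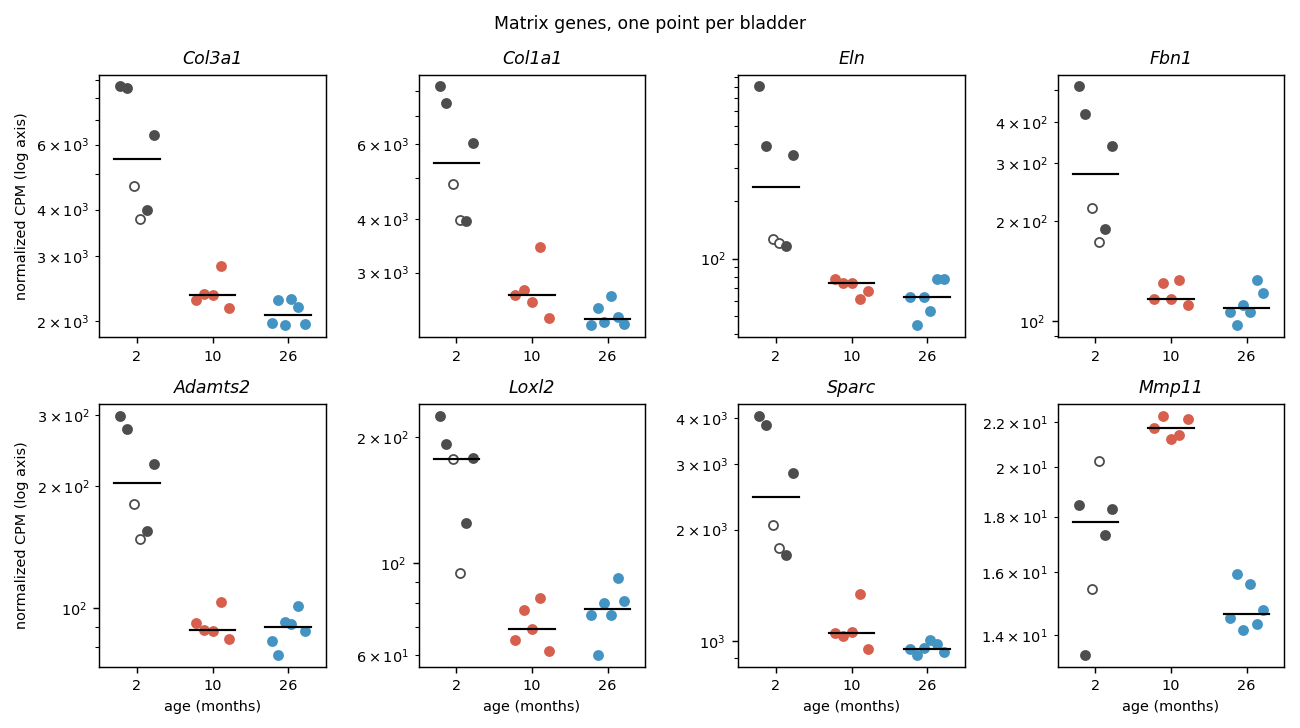
Normalized CPM (log axis) of 8 matrix genes in each young, middle-aged and untreated old bladder; bars are medians and open points are the 2 shallow young libraries. In 7 panels the middle-aged points lie below all young points and near the old ones, while Mmp11 is highest at 10 months.

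Neuroendocrine genes were mostly near the limit of detection. Of 23 listed genes of secretory granules and amine synthesis only 10 had enough counts to test, 2 fell and none rose, and no untested member exceeded 0.675 CPM in any of the 11 bladders. Ncam1, a neural adhesion molecule of nerve, muscle and neuroendocrine cells, read 57.1, 60.1 and 63.7 CPM in the lowest, median and highest young bladders and 41.4, 41.5, 41.6, 42.4 and 44.1 CPM in the middle-aged ones. The fall of 1.44-fold was small, and the groups did not overlap (-0.53 ± 0.04, adjusted p = 4.25e-05). Chga, chromogranin A of dense-core granules, read 0.117, 0.438 and 0.717 CPM in young and 0.0983, 0.0954, 0.0554, 0.0283 and 0.0552 CPM in middle-aged bladders. Those are 4 to 14 counts per young library and 1 to 3 per middle-aged library, and 62 against 11 counts in all (-2.60 ± 0.48, adjusted p = 0.00624). Its relative Chgb read 0.203 to 0.717 CPM and 0.111 to 0.311 CPM and did not pass (adjusted p = 0.0743). Ncam1 passed in every fit that left out a bladder. Chga passed wherever it could be tested, but without young bladder 1, 2, 3, 4 or 6 its counts fell under the filter, and the list kept 1 call without young bladder 1, 2 or 6.

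Of 17 listed neuropeptides 3 could be tested, and the precursor gene of neurotensin, Nts, was the one that changed. It read 0.837, 1.72 and 2.58 CPM in young and 0.328, 0.413, 0.360, 0.396 and 0.303 CPM in middle-aged bladders, all middle-aged values below all young ones (4.86-fold, -2.28 ± 0.26, adjusted p = 0.000688). Penk, the enkephalin precursor, read 3.35 to 12.0 CPM and 6.22 to 9.47 CPM and did not pass (adjusted p = 0.970). Transcripts of the sensory peptides Calca and Tac1 did not exceed 0.179 CPM in any of the 11 bladders, which is near 3 counts per library, the smallest number taken here as detected (0.0820 to 0.199 CPM). The cell bodies of sensory neurons lie outside the bladder. A change in these peptides was not detectable at such counts, and the cause of their low level was not tested.

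Among neuron genes 10 of 21 were tested, 1 rose and 3 fell. Stmn2, a tubulin regulator of axons, rose 1.39-fold, from 6.81, 7.29 and 9.98 CPM in young to 9.79, 10.6, 10.1, 12.5 and 10.7 CPM in middle-aged bladders, with overlap through the shallow young bladder 4 (0.47 ± 0.11, adjusted p = 0.0161). The neurofilament gene Nefm fell 2.01-fold, from 1.15 to 2.78 CPM to 0.688 to 0.993 CPM, while the synaptic vesicle gene Syt1 and the neuronal tubulin gene Tubb3 fell by 0.69 and 1.54 on the log2 scale. Direction therefore differed within the list. The calls of Syt1 and Tubb3 were lost in 7 and 8 of the 11 fits that left out a bladder, and the list's 4 calls were 2 without young bladder 2 or 6, and 1, 2, 1 and 2 without middle-aged bladder 1, 2, 3 or 4.

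Of 16 tested Schwann cell and myelin genes 7 fell and none rose, with a median log2 fold change of -0.42. Pmp22, a myelin protein gene that fibroblasts also express, read 158, 193 and 217 CPM in young and 128, 124, 118, 126 and 112 CPM in middle-aged bladders (1.56-fold, adjusted p = 0.00149). Sox10, the transcription factor of the Schwann lineage, read 13.4 to 16.1 CPM in young bladders, and middle-aged bladder 3 at 13.2 CPM came close while the other 4 lay at 7.24 to 9.83 CPM (-0.59 ± 0.13, adjusted p = 0.0129). Ngfr, a marker of immature and non-myelinating Schwann cells, fell 1.95-fold with overlap. The list's 7 calls were 4 without young bladder 1 or 6 and 4 and 3 without middle-aged bladder 1 or 5. All 4 nerve lists together, with 14 calls, kept 9 and 8 without young bladder 1 or 6, and 8, 9 and 9 without middle-aged bladder 1, 3 or 5, and reached 25 without both shallow young libraries.

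**Figure D4:**
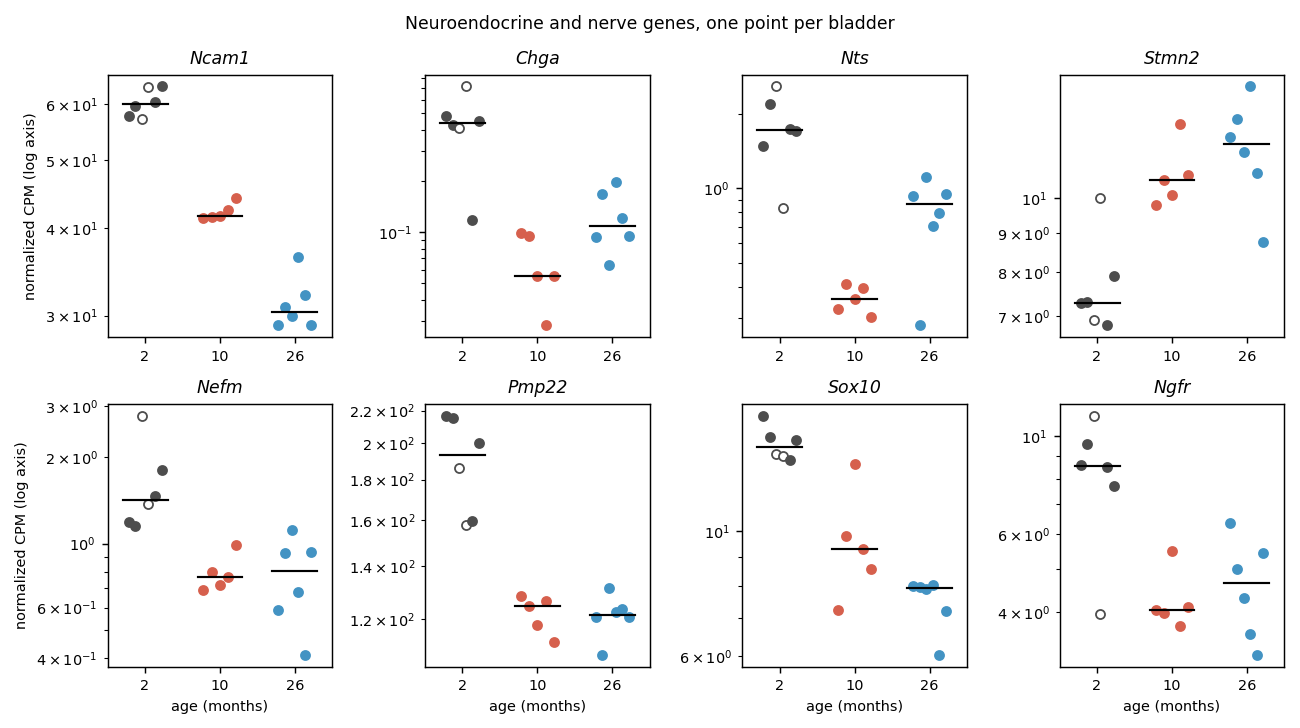
Normalized CPM (log axis) of 8 neuroendocrine and nerve genes in each young, middle-aged and untreated old bladder; bars are medians and open points are the 2 shallow young libraries. Ncam1, Chga, Nts, Nefm, Pmp22 and Sox10 separate the 2-month from the 10-month bladders, and Stmn2 is the panel that rises.

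Antibody genes rose by 10 months. Of 12 listed immunoglobulin constant regions 9 were tested, 6 rose and none fell, with a median log2 fold change of 3.07. Igkc, the kappa light chain constant region, read 0.837, 3.48 and 8.28 CPM in the lowest, median and highest young bladders and 159, 11.9, 167, 30.5 and 151 CPM in middle-aged bladders 1 to 5. The middle-aged bladders split into 3 at 151 to 167 CPM and bladders 2 and 4 far below them, and even the lowest of them exceeded all young bladders (25.1-fold, 4.65 ± 0.66, adjusted p = 0.00186). Ighm, the heavy chain of IgM, followed the same order, with 246, 41.2, 227, 65.3 and 246 CPM, but young bladder 2 at 54.3 CPM lay above middle-aged bladder 2. Its rise was 5.58-fold (adjusted p = 0.00570).

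The lambda constant regions Iglc1 and Iglc2 rose by 3.63 and 3.07 on the log2 scale, and the IgG heavy chains Ighg2b and Ighg2c by 3.62 and 6.34. Middle-aged bladder 2 stayed in the young range for both IgG chains (0.286 and 0.0636 CPM), while bladder 3 reached 90.4 CPM of Ighg2c. These heavy chains and the lambda regions are near-identical copies, so that the split of reads among them is uncertain. The 6 calls stayed between 6 and 8 when any bladder was left out. Jchain, which joins IgM and IgA into polymers in antibody-secreting cells, read 0.746 to 2.29 CPM in young and 23.8, 2.51, 27.0, 5.34 and 21.5 CPM in middle-aged bladders, an 11.2-fold rise without overlap in which bladders 2 and 4 again were lowest (3.48 ± 0.55, adjusted p = 0.00310).

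Some genes of the cells that make antibody rose too. Of 11 tested plasma cell genes 3 rose and of 11 tested B cell genes 4 rose, with none lower in either list. Cd79a, a component of the B cell receptor, read 0.303 to 0.763 CPM in young and 0.852, 0.477, 1.72, 0.848 and 1.99 CPM in middle-aged bladders, with middle-aged bladder 2 inside the young range (2.59-fold, adjusted p = 0.0358). The complement receptor gene Cr2 and the B cell kinase gene Blk rose by 0.88 and 1.12 on the log2 scale, and Pou2af1, a B cell coactivator, and Mzb1, an antibody-folding chaperone, by 1.88 and 2.06. The plasma cell genes Xbp1 and Sdc1, which urothelium and other secretory cells also express, did not pass. The B cell calls were 1, 1, 1, 1 and 0 without young bladder 1 or 2 or middle-aged bladder 1, 3 or 5, and 0 without young bladder 6. The plasma cell calls other than that of Jchain were lost without young bladder 1, 2 or 6 or middle-aged bladder 1, 3 or 5. In a fit over all 6 groups Cd79a, Cr2, Blk, Pou2af1 and Mzb1 did not pass (adjusted p 0.0795 to 0.486). Nor did Ighg2b, Iglc1 and Iglc2 (0.0578, 0.374 and 0.221), while Igkc, Ighm, Jchain and Ighg2c did. The part of the old bladders in these losses was not tested.

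No T cell gene and no interferon-stimulated gene passed. Of 19 tested T cell genes the lowest adjusted p was 0.0571, 3 had an unadjusted p under 0.05, and DESeq2 and limma called 1 each. Of 20 tested interferon-stimulated genes the lowest adjusted p was 0.110, 6 had an unadjusted p under 0.05, and DESeq2 and limma called 0. Cd3e, a subunit of the T cell receptor complex, read 0.499 to 1.39 CPM and 0.933 to 2.00 CPM (adjusted p = 0.101). The B cell attractant Cxcl13 rose from 0.446 to 2.24 CPM to 2.35 to 6.15 CPM (2.20-fold, adjusted p = 0.0458), with middle-aged bladder 5 highest, and this call was lost in 8 of the 11 fits that left out a bladder. Another 4 chemokines fell, among them Ccl6, Ccl2 and the interferon-induced Cxcl9. The 5 chemokine calls were 0, 1, 3 and 0 without young bladder 1, 2, 3 or 6 and 1, 0, 0, 1 and 0 without middle-aged bladders 1 to 5 in turn, and those of Ccl6 and Ccl2 were lost in 6 and 9 of the 11 fits. Cxcl9 ran from 0.0678 to 4.52 CPM in young and read 0.360, 0.572, 0.803, 0.254 and 0.414 CPM in middle-aged bladders, so that 2 young bladders (3 and 5) lay below the middle-aged range, and its call was lost in 8 of the 11 fits.

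Of 7 tested mast cell genes 3 fell and none rose, while the summed level of the list overlapped between groups (123 to 175 CPM in young and 149 to 178 CPM in middle-aged bladders). Cma1, mast cell chymase, read 1.91, 2.40 and 2.76 CPM in young and 1.11, 0.986, 0.941, 0.933 and 0.882 CPM in middle-aged bladders without overlap (2.46-fold, -1.30 ± 0.15, adjusted p = 0.000684). The tryptase gene Tpsb2 and the carboxypeptidase gene Cpa3 fell 2.08-fold and 2.68-fold, and at least 3 mast cell genes passed whichever bladder was left out. Kit, the stem cell factor receptor, which interstitial cells of the bladder also carry, did not pass (0.37 ± 0.23).

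Of 20 tested macrophage genes 2 fell, a share no higher than the 10.8% of all genes called. Both are markers of long-lived resident macrophages: Lyve1, also a lymphatic endothelial gene, read 31.5 to 44.4 CPM and 25.4 to 29.4 CPM (1.42-fold, adjusted p = 0.00409), and the phosphatidylserine receptor gene Timd4 fell 2.24-fold with overlap. Broad macrophage genes did not pass, Adgre1 at -0.64 ± 0.38 and Itgam at -0.48 ± 0.22, where young bladder 2 alone read 138 and 67.8 CPM. Of 17 tested dendritic cell and MHC class II genes 1 passed, a share of 5.88% that lay under the 10.8% of all genes tested. It was the lectin receptor gene Cd209a, which rose: 10.8, 11.7 and 13.3 CPM in young and 19.6, 17.1, 17.5, 19.5 and 16.2 CPM in middle-aged bladders (0.59 ± 0.08, adjusted p = 0.00139). Of 12 tested natural killer and cytotoxic genes 3 fell, a share of 25% beside 10.8% of all genes tested. These were Prf1, Klrk1 and Klre1, lower by 0.90, 0.71 and 1.13 on the log2 scale at levels of at most 4.38 CPM. Their 3 calls were 1, 1 and 0 without young bladder 1, 2 or 6, rose to 6 and 5 without young bladder 4 or 5, and were 1, 0, 1 and 0 without middle-aged bladder 1, 2, 3 or 5. In the complement list C4b, a component of the classical pathway, rose from 92.5 to 132 CPM to 147 to 168 CPM (1.34-fold, adjusted p = 0.0107) and C1ra fell by 0.21 on the log2 scale, 2 of 19 tested beside the background of 10.8%.

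For the immune lists as a whole, the 29 calls were 17, 18 and 14 without young bladder 1, 2 or 6, and 18, 16 and 13 without middle-aged bladder 1, 3 or 5. They were 50 without both shallow young libraries.

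**Figure D5:**
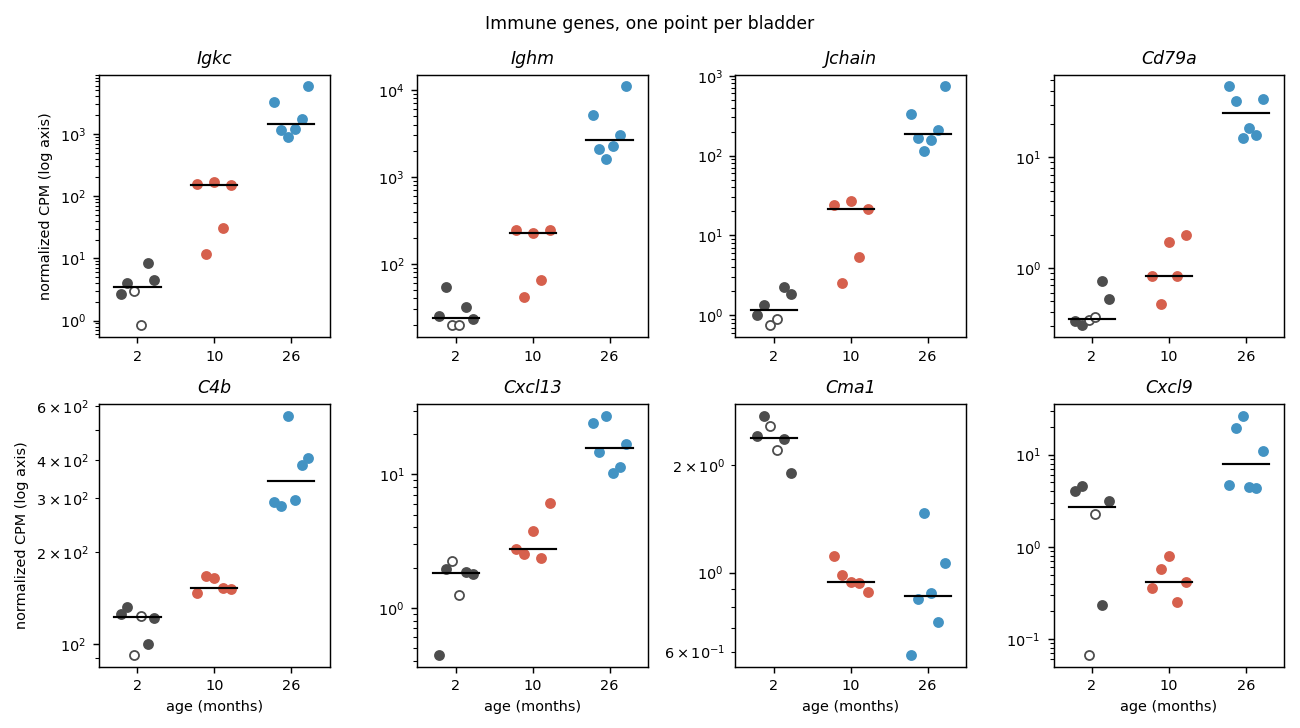
Normalized CPM (log axis) of 8 immune genes in each young, middle-aged and untreated old bladder; bars are medians and open points are the 2 shallow young libraries. Igkc, Ighm and Jchain climb over both steps with middle-aged bladders 2 and 4 lowest in their group, Cma1 steps down once, and Cxcl9 dips at 10 months before its rise.

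The 16 senescence and inflammation markers that the study followed by quantitative PCR were read in the same 11 bladders. Of these 10 could be tested, 1 rose and 1 fell, a share of 20% beside 10.8% of all genes tested. Cdkn2a, which encodes the cell cycle inhibitor p16, read 0.347, 0.716 and 1.08 CPM in young and 1.05, 0.922, 0.720, 0.735 and 0.717 CPM in middle-aged bladders and did not pass (0.33 ± 0.28, adjusted p = 0.487). Cdkn1a, which encodes p21, read 49.6 to 83.4 CPM and 78.2 to 86.9 CPM and rose 1.29-fold (adjusted p = 0.0320), with the shallow young bladder 4 alone inside the middle-aged range. The monocyte attractant Ccl2 fell 2.13-fold with overlap (adjusted p = 0.0398).

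The other tested markers, Il1b, Mmp3, Ptgs2, Tgfb1, Tnf, Adgre1 and Itgam, had log2 fold changes between -0.81 and 0.33, and Ccl3, Csf2, Cxcl1, Il6, Il10 and Mmp13 were too low to test. Leaving out young bladder 1, 2 or 6 or middle-aged bladder 1, 2, 3 or 5 ended both calls, and leaving out young bladder 3 or middle-aged bladder 4 ended that of Ccl2.

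The genes with the largest rises outside the antibody genes were of mixed kind. Cabp7, a calcium-binding protein of the Golgi, Esm1, an endothelial proteoglycan (endocan), Dpp6, a potassium channel subunit, Car8, an inactive carbonic anhydrase that binds the inositol trisphosphate receptor, the cadherin gene Cdh8 and the protocadherin gene Pcdhb9 rose 3.44-, 3.40-, 3.36-, 3.28-, 3.25- and 2.86-fold. Pcdhb9 had groups far apart beside their spread, with 2.51, 2.84 and 3.32 CPM in young and 8.22, 9.51, 7.61, 8.37 and 8.02 CPM in middle-aged bladders (1.52 ± 0.10, adjusted p = 4.50e-06). The antisense RNA gene C130021I20Rik rose 2.98-fold, and ENSMUSG00000079190, a protein-coding model on an unplaced scaffold whose reads may belong to copies elsewhere, 3.30-fold. Esm1 overlaps the cytotoxic gene Gzmk on the other strand, and the strand setting of the counting is not given in the sources used here, so that reads of both genes cannot be told apart. Among the largest falls, Nrk, an X-linked kinase gene known from placenta and embryo, read 0.610, 2.16 and 3.90 CPM in young and 0.197, 0.382, 0.277, 0.368 and 0.386 CPM in middle-aged bladders (7.22-fold), and Creb3l3, a membrane-bound transcription factor of lipid metabolism, fell 3.58-fold.

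Markers of other tissue components are given in turn. The shares called among urothelial (9.52%), smooth muscle (7.14%), adipocyte (8.33%) and immediate early genes (5.26%) lay under the 10.8% of all genes tested. Those of endothelial (23.1%) and skeletal muscle genes (33.3%) lay above it. In urothelium, Foxa1, a factor of epithelial differentiation, rose by 0.23 and the basal keratin gene Krt14 fell by 2.66 on the log2 scale, 2 of 21 tested, and Krt14 was high in young bladders 1, 2 and 6 and lost its call without any of them. The urothelial count was 1 without young bladder 1, 2 or 6 or middle-aged bladder 1, 2, 3 or 5, and 6 without young bladder 4. Of 14 smooth muscle genes 1 (Myocd) fell, of 12 adipocyte genes 1 (Car3) fell, and of 13 endothelial genes 3 fell, Lyve1, Cdh5 and Pecam1. Skeletal muscle genes, which mark striated fibers taken along at the bladder neck, fell in 3 of 9 tested cases, with a summed level of 544 to 1262 CPM in young and 498 to 819 CPM in middle-aged bladders. That count was 1 without middle-aged bladder 1, 2, 3 or 5 and 5 without young bladder 4. The part of that tissue in the results above was not tested. Of 19 immediate early genes 1 fell (Dusp1, 2.82-fold, with young bladder 3 at 114 CPM against 34.1 to 53.3 CPM in the other young bladders), and no gene passed among 12 of steroid hormone response, 6 of mesothelium and 5 of red blood cells, where 4, 1 and 0 had an unadjusted p under 0.05 and DESeq2 called 1, 0 and 0.

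The last question was whether these changes went on after 10 months. Untreated old bladders were compared with the middle-aged ones (4110 of 17156 tested genes called, 24.0%), and the difference between the steps was tested as old minus middle-aged against middle-aged minus young. That difference passed for 1884 of 17376 genes (10.8%), with 1246 more positive and 638 more negative in the later step. limma on log2(TPM + 1) gave 800 and 779, a more even split. Both comparisons share the 5 middle-aged bladders, so that a chance deviation of that group enters the steps with opposite signs.

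Cell cycle genes turned back. In the later step 29 of 40 rose and none fell, and the difference between steps passed for 26. Mki67 read 10.7 to 31.4 CPM at 26 months, a log2 fold change of -1.69 in the earlier and 2.20 in the later step (difference 3.91, adjusted p = 0.00509). Of 141 tested matrix genes 22 rose and 20 fell in the later step, where 2231 of all 17156 tested genes rose and 1879 fell. Of 28 proteoglycan and matricellular genes 8 rose and 2 fell. Of 20 proteases and inhibitors 6 rose and 6 fell, and of 23 collagen processing genes 4 rose and 1 fell. Of the fibrillar collagens none rose and 1 fell in the later step, and Col3a1 read 1944 to 2289 CPM at 26 months, with log2 fold changes of -1.33 and then -0.16 (difference 1.19, adjusted p = 0.0316). For Eln the changes were -2.18 and -0.15, but the difference between them did not pass (2.06, adjusted p = 0.0823).

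Antibody genes went on rising. Igkc read 899 to 5790 CPM at 26 months and changed by 4.65 and then 4.52 on the log2 scale (difference -0.11, adjusted p = 0.964), while T cell genes, none of which passed up to 10 months, rose in 21 of 21 tested cases afterwards, and the difference between steps passed for 19 of them. Cd79a rose by 1.37 and then 4.49 (difference 3.14, adjusted p = 0.0124). Ncam1 fell in both steps, by 0.53 and 0.41 on the log2 scale (difference 0.13, adjusted p = 0.369), and read 29.0 to 36.4 CPM at 26 months. Nts, by contrast, rose again to 0.280 to 1.12 CPM (difference 3.47, adjusted p = 0.00191), and Mmp11 fell back to 14.2 to 15.9 CPM (difference -0.83, adjusted p = 0.00180). Of the early risers, Dpp6, Car8 and Cdh8 held their level, with later changes of 0.04, 0.13 and 0.15 that did not pass and differences from the earlier step that did (adjusted p = 0.00792, 0.0169 and 0.00287).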

How the data were processed

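Total RNA of whole bladders was sequenced after preparation with the Illumina TruSeq Stranded Total RNA kit. According to the methods and the submitters' processing notes, the authors aligned reads with STAR 2.7.3 to mm10 and deposited raw counts per gene from featureCounts of Subread. The strand setting of the counting is not given in the sources used here, so that overlapping genes on opposite strands (among those named, these include Eln, Esm1, Timp1, Igf2, Igf1, Mmp11, Cabp7, Igf2bp3, Fkbp10, Thbs3, Nefm, E2f7, Igfbp7, Col18a1, Nid2 and Dusp1) may share reads. The authors also deposited log2 values of counts divided by exon length, offset by 1 count and scaled to a sum of 100000 per bladder, which served only the limma alternatives after rescaling to TPM. The exon lengths in the deposited count table gave the TPM printed here.

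The 5 middle-aged and 6 young libraries were fitted with edgeR 4.0.16 in R 4.3.3 (filterByExpr, TMM, quasi-likelihood test, Benjamini-Hochberg adjustment over all tested genes, threshold 0.05). Of 32285 genes, 16754 were tested, and every adjusted p in the text is of this test unless another tool is named. CPM were scaled over all 32 libraries. Later steps were fitted the same way on the untreated groups. Alternatives were DESeq2 1.42.0, limma 3.58.1 on log2(TPM + 1) and log2(TPM + 0.1), upper-quartile scaling, a likelihood ratio test, other count filters, all 6 groups, the replicate number as a block, and leaving out each bladder. The fit functions were tested on simulated data. p-values measure the spread between these bladders, and the limit of 3 counts covers counting error only.

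Members and lists (665 symbols in 39 lists, 2 of them without a match in the table) were chosen with earlier results of these data known. Genes were named by rule: the 10 largest rises and falls among called genes with groups that do not overlap and a mean of at least 1 CPM, immunoglobulin variable segments left out, then up to 4 members per list by adjusted p, the 16 markers of the study, and members that define a list. Promoter windows and motif counts used RefSeq starts on GRCm38.p6. All columns of the tables were mapped to samples by name, and replicate numbers are those of the titles.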

Additional observations from a re-analysis of the deposited data

Results flagged for a closer look

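In 17 of 261 groups of 4 to 10 bladders examined, the highest or lowest bladder lay apart from the others of its group by more than Dixon's criterion allows. Chance alone marks about 1 group in 20, which is 13.1 groups here.

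Young bladder 2 stood out for 6 immune genes. It read 138 CPM of the macrophage gene Adgre1 (the other young bladders 27.3 to 43.7), 67.8 CPM of the integrin gene Itgam (25.2 to 31.9), 2.27 CPM of Tnf (0.176 to 0.475), 2.27 CPM of Ccl3 (0.0587 to 0.271), 2.61 CPM of Il10 (0 to 0.149) and 54.3 CPM of Ighm (19.6 to 32.1). The part of this bladder in the immune comparisons is given there by the values without it.

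Young bladder 3, one of the shallow libraries, read 336 CPM of Ccn1 (15.8 to 74.8 in the others) and 114 CPM of Dusp1 (34.1 to 53.3). Young bladder 4, the other shallow library, read 31.0 CPM of Igf2 (38.2 to 42.3) and 9.98 CPM of Stmn2 (6.81 to 7.90). Young bladder 1 read 2.49 CPM of Ttk (0.587 to 1.18), and young bladder 6 read 2.32 CPM of Syt1 (1.41 to 1.58).

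Among middle-aged bladders, bladder 2 read 2.26 CPM of Cdk1 (1.27 to 1.53 in the others) and 183 CPM of Pi16 (257 to 278). Bladder 3 read 5.48 CPM of Ngfr (3.70 to 4.11) and 90.4 CPM of Ighg2c (0.0636 to 16.9), and bladder 4 read 1341 CPM of Sparc (951 to 1055).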

How the results depend on the processing

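Of 115 named genes past the threshold, 62 were tested and passed in every fit run, and 74 whichever bladder was left out, while 3 (Chga, Fbn2 and Mzb1) were not tested in some of those fits. The 1811 calls became 2858 in the fit over all 6 groups and 3717 without both shallow young bladders, and ran from 728 (without middle-aged bladder 5) to 2794 (without young bladder 4). The fit over all 6 groups called 2519 genes between old and middle-aged bladders in place of 4110. The difference between steps was called for 683 to 2907 genes with 1 bladder left out (without middle-aged bladder 5 and young bladder 4; 946, 991 and 923 without middle-aged bladder 1, 2 or 3). Growth calls were 15 and 18 by limma on log2(TPM + 1) and log2(TPM + 0.1), 55 without both shallow bladders, and 11 to 42 with 1 bladder left out. Nerve and neuroendocrine calls were 25 without both shallow bladders and 8 to 19 with 1 left out. Immune calls were 19 by limma on log2(TPM + 1), 50 without both shallow bladders, and 13 to 43 with 1 left out. Matrix calls moved by less than 1.5 times under every alternative. DESeq2 lost no call among the named genes. Among genes that did not pass, Il1b ran from -0.58 to 0.21 on the log2 scale with 1 bladder left out and Tnf from -0.65 to 0.67, both positive without young bladder 2, and Tnf was 0.10 by limma on log2(TPM + 0.1). The causes of these changes were not tested.

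The titles number the bladders in each group and do not say that the numbers pair them. The correlations of same-numbered deviations were 0.00276, 0.0799, -0.0294, 0.102 and 0.125 for bladders 1 to 5. Those of bladders 4 and 5 exceeded the limit of 0.1 set for pairing. Only middle-aged bladder 5 correlated best with its own number. So few and weak correlations cannot decide whether the bladders were paired, and the main fit used no pairing. With the replicate number as a block, 716 genes were called, with 18 in growth, 7 in nerve and neuroendocrine and 19 in immune lists. The count table numbers the middle-aged bladders 1, 2, 4, 5 and 6. With those numbers, an alternative chosen after the data were seen, the correlations ran from -0.24 to 0.0799, and the block gave 893 calls, with 27 in growth, 6 in nerve and neuroendocrine and 21 in immune lists. Low counts limited the neuropeptides, the granule genes and Chga, whose middle-aged counts were at most 3 per library.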

Other observations

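Some members of several gene families outside the lists changed by 10 months. The families were picked after their values were seen, so that their counts are given without a test of the family. Among all tested genes 4.96% were higher and 5.85% lower. Of 7 tested Cd209 lectin genes, which mark subsets of macrophages and dendritic cells, 6 rose, with a median log2 fold change of 0.90. Cd209b read 3.73 to 5.38 CPM in young and 9.69 to 11.8 CPM in middle-aged bladders, a rise of 1.24 on the log2 scale. These genes are close copies, and the split of reads among them is uncertain. Of 4 tested peptidylarginine deiminases, enzymes that convert arginine to citrulline, 3 rose: Padi4 from 16.9 to 31.5 CPM to 38.6 to 48.7 CPM, Padi2 by 1.23, and Padi1 by 1.44 on the log2 scale.

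Some enzymes that conjugate small molecules rose. Of 8 tested glucuronosyltransferases 5 rose, among them Ugt2b34 (89.3 to 144 CPM, then 187 to 230.2 CPM) and Ugt2b35 (by 1.05 on the log2 scale), and the others did not pass. The Ugt1a genes Ugt1a7c and Ugt1a6a, also among the 5, overlap on the same strand, so that their reads may be shared. Of 21 tested glutathione transferases 4 rose (Gstp3, Gsta3, Gstt3 and Gsto1) and none fell. Aldehyde dehydrogenases went both ways, with 6 higher and 3 lower of 20 tested. Of 4 tested gasdermin C genes 2 fell: Gsdmc2 from 247 to 495 CPM to 138 to 218 CPM, and Gsdmc3 from 66.7 to 130 CPM to 35.2 to 53.6 CPM. Of 11 Wnt ligands 4 fell. None of 6 uroplakins and none of 13 mitochondrial messenger RNAs passed, and of 77 genes named as ribosomal proteins 1 fell (Rpl7l1).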
